A study of Rattus norvegicus with 20 samples.

Results

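Proteasome subunits and the proteins that assemble, activate or inhibit the proteasome were followed in the right ventricle of rats with chronic pulmonary embolism. The members were all probe sets (each a set of array probes for 1 transcript) whose single gene symbol in the platform annotation was Psma, Psmb, Psmc, Psmd, Psme, Psmf or Psmg followed by a number. These were 58 of 31042 probe sets tested, and 44 of 14217 genes with a symbol of their own. The immunoproteasome genes Psmb8, Psmb9 and Psmb10 and the PA28 activator genes Psme1 and Psme2, with 6 probe sets, are described apart from the other 39 genes and their 52 probe sets. Psmb6 and Psme3 were measured only by probe sets shared with other genes, so no values are given for them.

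RNA was hybridised to 20 arrays, 5 in each of 4 groups, which were the outflow tract of rats with pulmonary embolism (PE outflow), the outflow tract of vehicle rats (vehicle outflow), the apex of rats with pulmonary embolism (PE apex) and the apex of vehicle rats (vehicle apex). All animals were male Sprague Dawley rats of about 350.0 g with no genetic change named, and their age is not given in the sources used here. Embolism had been induced by an injection, through the right jugular vein, of 25 micron beads of polystyrene (2000000 per 100 g) in 0.01% Tween-20, and vehicle rats received Tween-20 alone. Hearts were taken 6 weeks later and perfused briefly, and the right ventricle was parted into outflow tract (base) and apex. The microspheres block lung vessels and load the right ventricle, but unlike a clot they do not dissolve. A text field names the vehicle treatment for all samples, and the groups follow the titles and the treatment field.

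The proteasome is the protease that degrades proteins tagged with ubiquitin. Its core particle is a barrel of alpha and beta rings, with the catalytic sites in the beta rings, and its regulatory particle binds ubiquitin chains, removes them and threads the unfolded protein into the barrel. Interferon induces other catalytic subunits (Psmb8 in place of Psmb5, Psmb9 in place of Psmb6, Psmb10 in place of Psmb7), which make the immunoproteasome, and the activator PA28, a ring of the products of Psme1 and Psme2. In heart muscle the pathway is known for the turnover of contractile proteins.

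Of the 44 genes, 40 had a promoter in the RefSeq table (rat build GRCr8). The sequences before the start of 4 genes are shown because the RNAs of Psmb8 and Psmb5, which encode alternative forms of the same catalytic subunit, differed in direction, and because Psme1 changed and Psme2 was not called although their products form 1 complex. Capitals mark matches, on either strand, to 3 patterns known as binding sites of transcription factors in stress and cytokine responses (TGACNNNGC, TTCNNNGAA and a pair of GAAA with 2 bases between, called the GAAA pair below; N is any base).
Psmb8 at chr20:4657032-4657281, minus strand: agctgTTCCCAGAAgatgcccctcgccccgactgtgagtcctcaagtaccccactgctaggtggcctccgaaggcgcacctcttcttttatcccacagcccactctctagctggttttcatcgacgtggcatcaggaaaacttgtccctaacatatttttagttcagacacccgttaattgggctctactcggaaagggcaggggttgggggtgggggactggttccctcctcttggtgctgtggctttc
Psmb5 at chr15:32047380-32047629, minus strand: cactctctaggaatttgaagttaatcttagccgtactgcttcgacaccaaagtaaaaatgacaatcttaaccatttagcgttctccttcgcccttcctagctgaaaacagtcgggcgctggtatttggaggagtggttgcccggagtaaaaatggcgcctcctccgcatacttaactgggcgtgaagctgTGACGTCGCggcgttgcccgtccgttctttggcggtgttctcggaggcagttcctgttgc
Psme1 at chr15:33038721-33038970, plus strand: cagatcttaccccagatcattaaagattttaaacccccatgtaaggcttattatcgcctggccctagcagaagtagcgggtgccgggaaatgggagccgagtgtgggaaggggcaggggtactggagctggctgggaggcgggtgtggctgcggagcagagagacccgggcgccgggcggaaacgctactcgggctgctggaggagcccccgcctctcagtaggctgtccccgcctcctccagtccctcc
Psme2 at chr15:33052752-33053001, minus strand: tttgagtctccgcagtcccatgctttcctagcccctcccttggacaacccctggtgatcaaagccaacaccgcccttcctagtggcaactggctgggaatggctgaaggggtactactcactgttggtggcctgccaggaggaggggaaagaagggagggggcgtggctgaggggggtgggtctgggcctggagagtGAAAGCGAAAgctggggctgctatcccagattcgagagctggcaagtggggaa
Within the windows shown, the Psmb8 sequence held the TTCNNNGAA pattern, the Psmb5 sequence TGACNNNGC and the Psme2 sequence the GAAA pair, and the letters of none of the 3 patterns were found in the Psme1 window. Over the 40 genes, TGACNNNGC was present in 6 (15%) against 10.1% of 33469 rat promoters, the GAAA pair in 5 (12.5%) against 3.41%, and TTCNNNGAA in 4 (10%) against 7.67%. The genes with TGACNNNGC were Psma3, Psmb2, Psmb5, Psmd1, Psmd9 and Psme4. These matches describe letters only.

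The main comparison asked how proteasome RNA differed between PE and vehicle rats in the outflow tract. Of the 58 probe sets, 29 (50%) fell and 1 rose at an adjusted p under 0.05 (limma, log2 of the signal plus 16, Benjamini-Hochberg adjustment over all 31042 probe sets). Among all probe sets tested, 14.9% fell and 19.6% rose, and among the 12310 brighter ones, with a mean log2 signal above 8, 28.0% fell. Proteasome probe sets are mostly bright, and 27 of the 51 that passed this limit fell (52.9%). By gene, taken at the brightest probe set, 24 of 44 fell and 1 rose. Of these 24 genes, 18 were still called after quantile normalization. With an RNA quality ratio as a covariate 17 were called, and without 3 PE outflow arrays with raised ratios 18, as described below. Psma7, Psmb2, Psmb7, Psmc5, Psmd2, Psmd4, Psmd12, Psme1 and Psme4 kept the call in all 22 alternatives run, as did Psmb8. The median log2 fold change was -0.36 over the 58 probe sets and 0.05 over all probe sets.

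In the main comparison, without the alternatives above, the fall was called for most genes of the standard proteasome. Of the 39 genes outside the immunoproteasome and PA28, 23 fell, 0 rose and 16 were not called, and the median log2 fold change was -0.36. The estimate was below 0 for 36 of these 39 genes, and for 46.0% of all probe sets. For 19 of the 39 genes every PE outflow array lay below every vehicle outflow array, a pattern that 9.98% of all probe sets showed. All 39 genes are among the brighter probe sets. For estimates below 0 and for groups without overlap, the shares among brighter probe sets are not given, here or in the comparisons below. In bulk tissue, fewer cells of a type and less RNA per cell cannot be told apart.

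**Figure D1:**
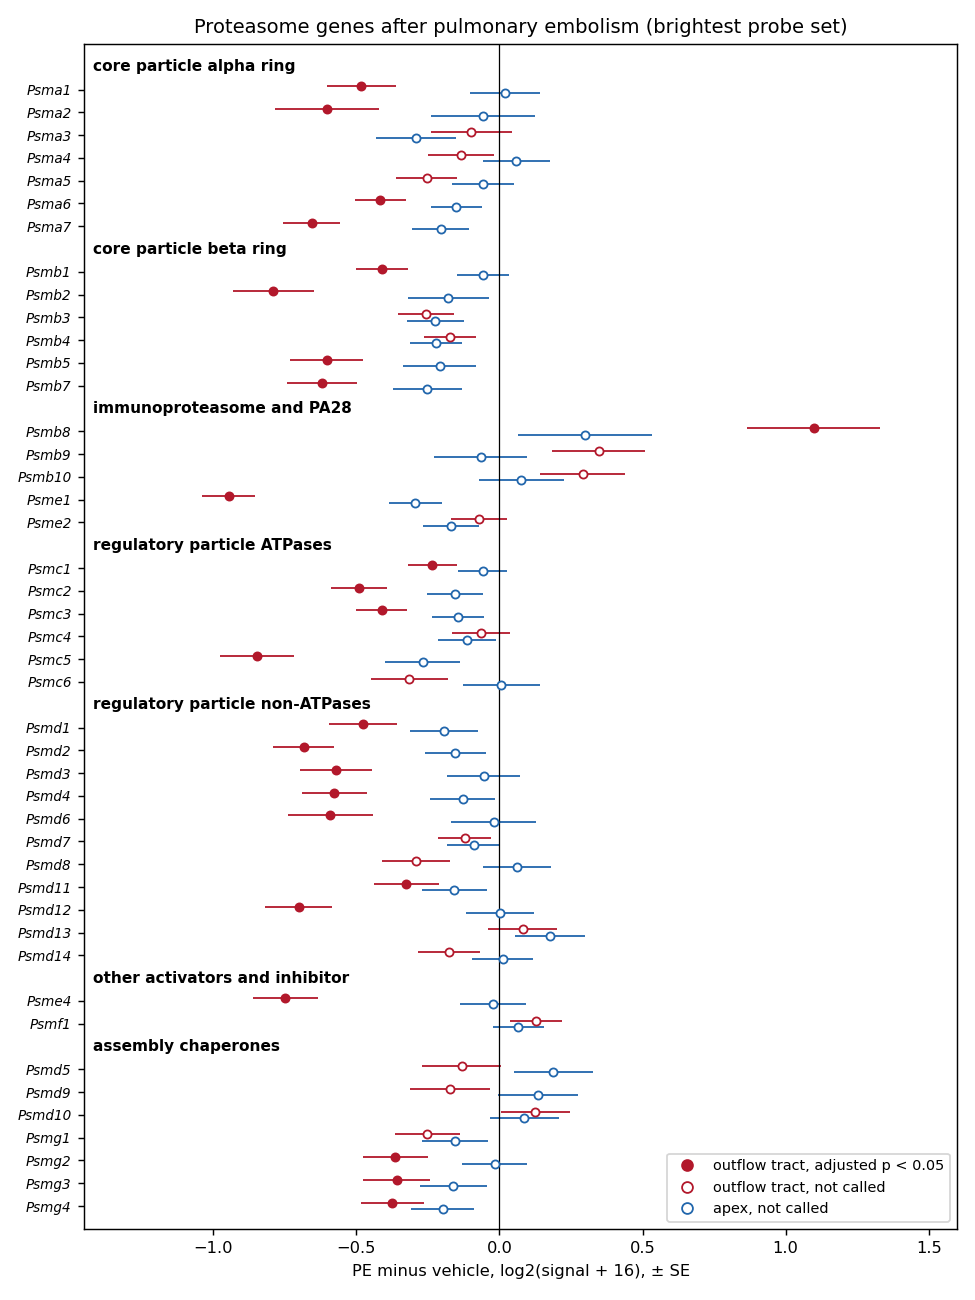
Log2 fold change of 44 proteasome genes, PE minus vehicle, with the standard error, at the brightest probe set of each gene. Red points are the outflow tract (filled where the adjusted p was under 0.05, 25 genes) and blue points the apex, where no gene was called. Red points lie mostly left of 0, with Psmb8 at 1.10 and Psme1 at -0.94 as the extremes.

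In the alpha ring of the core particle, whose subunits form the gate of the barrel, 4 of 7 measured genes fell, with a median log2 fold change of -0.42. Psma7 had the smallest p of them (-0.66 ± 0.10, SE, adjusted p = 3.76e-05), with signals of 3813 to 4783 (median 4206) on PE outflow arrays and 5667 to 7145 (median 6997) on vehicle outflow arrays, with no overlap. Psma1 (-0.48), Psma2 (-0.60) and Psma6 (-0.42) also fell. Psma3, Psma4 and Psma5 had -0.10, -0.13 and -0.25 and did not pass the test. The estimate for Psma2 leaned on replicate 2 of the PE outflow group, whose signal was 2471 against 4125 to 6320.0 on the other arrays of the group, and it was -0.17 (adjusted p = 0.438) with the GAPDH ratio described below as a covariate. With that covariate Psma1 had -0.26 (adjusted p = 0.112). Under quantile normalization Psma6 had -0.10 (adjusted p = 0.415) and Psma2 an adjusted p of 0.0646, so only Psma7 of this ring kept its call in both.

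In the beta ring, which holds the catalytic sites, 4 of 6 measured standard genes fell, with a median of -0.51. Psmb5 encodes the chymotrypsin-like catalytic subunit. Its signals were 5149, 6346, 4427, 4176 and 4176 on PE outflow arrays and 7223, 6674, 6711, 6772 and 9383 on vehicle outflow arrays. All PE outflow arrays lay below all vehicle ones, and the signal was 1.52-fold lower (log2 -0.60 ± 0.13, SE, adjusted p = 9.16e-04). Its other probe sets were dim, at most 76.8 on any outflow array, and were not called.

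Psmb7, the trypsin-like catalytic subunit, had 3586, 4557, 3768, 3810.3 and 3470.2 on PE outflow arrays and 6137, 5447, 5249, 5858 and 6825 on vehicle outflow arrays. These groups did not overlap either, with a 1.54-fold lower signal in PE (log2 -0.62 ± 0.12, SE, adjusted p = 4.68e-04). For Psmb5 and Psmb7 alike the highest PE array was replicate 2.

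Psmb2, a beta subunit without a catalytic site, had 3970.3, 2155, 3065, 3440.2 and 2658 on PE outflow arrays and 4909, 5201, 5296, 5265 and 5260.1 on vehicle outflow arrays. It fell 1.73-fold (log2 -0.79 ± 0.14, SE, adjusted p = 1.79e-04). Here replicate 2 was the lowest of the PE arrays, and the groups did not overlap. With the GAPDH covariate it had -0.52 and kept its call. Psmb1 fell (-0.41), but not under quantile normalization (-0.23, adjusted p = 0.0512), and Psmb3 (-0.26, adjusted p = 0.0504) and Psmb4 (-0.17) were not called. The sign of Psmb4 turned under quantile normalization (0.09).

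Of the 6 ATPases of the regulatory particle, the ring that unfolds substrates, 4 fell, with a median of -0.36. Psmc5 had 2577, 2292, 2297, 1873 and 1726 on PE outflow arrays and 3862, 3606, 3754, 3853 and 4174 on vehicle outflow arrays. The highest PE array lay well below the lowest vehicle array, and the signal was 1.80-fold lower (log2 -0.85 ± 0.13, SE, adjusted p = 3.95e-05). Psmc1 (-0.23), Psmc2 (-0.49) and Psmc3 (-0.41) also fell. Psmc2 had -0.22 under quantile normalization (adjusted p = 0.0815). Psmc1 lost its call in 12 of 22 alternatives, with adjusted p-values up to 0.34, among them leaving out replicate 4 or 5 of PE outflow or replicate 1, 3, 4 or 5 of vehicle outflow. Psmc4 had -0.06 and Psmc6 had -0.31 at its brightest probe set, and no probe set of either passed the test.

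Of the 11 non-ATPase subunits, which include the scaffold and the ubiquitin-handling subunits, 7 fell and 4 were not called, with a median of -0.48. Psmd12, a subunit of the lid, had 2591, 2748, 1881, 1839.6 and 1909.5 on PE outflow arrays and 3406, 3454, 3552, 3675 and 3531 on vehicle outflow arrays. It fell 1.63-fold (log2 -0.70 ± 0.12, SE, adjusted p = 9.72e-05), with the vehicle arrays close together and the PE arrays all below them. The scaffold subunits Psmd2 (-0.68, adjusted p = 4.31e-05) and Psmd1 (-0.48) fell, as did the ubiquitin receptor Psmd4 (-0.58) and the lid subunits Psmd3 (-0.57), Psmd6 (-0.59) and Psmd11 (-0.32). Psmd8 had -0.29 and Psmd13 had 0.08, and neither passed the test. Psmd8 was called in some alternatives, among them quantile normalization (-0.33, adjusted p = 0.0414). Psmd6 had 2004 on replicate 2 of PE outflow, against 2974 to 3986 on the other 4 arrays of that group, and its log2 fold change was -0.22 (adjusted p = 0.136) with the GAPDH covariate. Without replicates 2, 4 and 5 of PE outflow, Psmd6 had -0.33 and Psmd4 -0.38, both still called, while the calls of Psmd1 (adjusted p = 0.0521) and Psmd11 (adjusted p = 0.163) were lost. Psmd11 lost its call in 8 of 22 alternatives, among them leaving out replicate 4 or 5 of PE outflow or replicate 1 or 4 of vehicle outflow.

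Probe sets of the same gene disagreed for Psmd14, the deubiquitinase of the lid, and for its partner Psmd7. The brightest probe set of Psmd14 had -0.18 (adjusted p = 0.233), while its dimmer ones fell by 0.49 and 0.53 on the log2 scale. The brightest of Psmd7 had -0.12 (adjusted p = 0.356), and a dimmer one fell by 0.59 (adjusted p = 0.00108). With the GAPDH covariate the brightest probe sets of Psmd14 (-0.32, adjusted p = 0.0477) and Psmd7 (-0.26, adjusted p = 0.0484) were called lower too. With any probe set counted, 26 of 44 genes had a fall, against 24 at the brightest. Among 3 probe sets of Psmd11, only the brightest was called.

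Psme4 encodes an activator that opens the core particle without ATP. Its brightest probe set had 2003, 1472, 1619, 1312 and 1669 on PE outflow arrays and 3039, 2325, 3012, 2463 and 2714 on vehicle outflow arrays. The groups did not overlap, and the signal was 1.68-fold lower (log2 -0.75 ± 0.11, SE, adjusted p = 4.13e-05). Another probe set fell by 0.36 on the log2 scale, and the remaining 1 had -0.80 (adjusted p = 0.0566). Psmf1, which encodes a protein that inhibits the proteasome in vitro, had 0.13 and was not called. Its sign turned when arrays were centred on their medians (-0.0063).

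Of the 7 assembly chaperones, 3 fell, all of them helpers of core particle assembly, with a median of -0.25 over the list. Psmg2 had -0.36 (adjusted p = 0.0167), Psmg3 -0.36 (adjusted p = 0.0217) and Psmg4 -0.37 (adjusted p = 0.0118). All 3 calls were lost with the GAPDH covariate, where Psmg2 had -0.16 (adjusted p = 0.315), Psmg3 -0.34 (adjusted p = 0.0825) and Psmg4 -0.30 (adjusted p = 0.0936). Without replicates 2, 4 and 5 of PE outflow Psmg2 had -0.16 (adjusted p = 0.38) and Psmg3 -0.26 (adjusted p = 0.234), and Psmg3 also lost its call without replicate 4 or 5 of PE outflow or replicate 5 of vehicle outflow. Psmg1 (-0.25, adjusted p = 0.101) and the chaperones of the regulatory particle, Psmd5 (-0.13), Psmd9 (-0.17) and Psmd10 (0.13), did not pass the test. Psmd10 and Psmd13 turned in sign when arrays were centred (-0.0086 and -0.05).

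None of the 3 immunoproteasome genes fell. Psmb8 encodes the subunit that takes the place of Psmb5. It had 1057, 753, 1113, 1690.0 and 2098 on PE outflow arrays and 649.5, 493, 609, 617 and 542 on vehicle outflow arrays. Each PE array exceeded every vehicle array, which was so for 13.4% of all probe sets, and the signal was 2.14-fold higher (log2 1.10 ± 0.23, SE, adjusted p = 9.66e-04). It was the only member that rose. The rise spread widely within the PE outflow group, with replicates 4 and 5 highest.

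Psmb9 had 1389, 1307, 1239.9, 1703 and 1911 on PE outflow arrays and 1146, 1165, 1080.5, 920.5 and 1629 on vehicle outflow arrays. The groups overlapped through replicate 5 of the vehicle group, and Psmb9 was not called (log2 0.35 ± 0.16, SE, adjusted p = 0.11). Without that array Psmb9 was called (0.47, adjusted p = 0.027). Over all alternatives its adjusted p lay between 0.027 and 0.628.

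Psmb10 had 579, 812, 659, 776 and 919 on PE outflow arrays and 506, 707, 572, 616 and 627 on vehicle outflow arrays. The groups overlapped, and the log2 fold change of 0.29 ± 0.15 (SE) did not pass the test (adjusted p = 0.145).

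The PA28 genes differed from each other. Psme1 had 10281, 10517, 9859.5, 9854 and 9673 on PE outflow arrays and 19189, 17494, 18402, 19601 and 22278 on vehicle outflow arrays. The PE arrays were close together and far below the vehicle arrays, a 1.93-fold lower signal (log2 -0.94 ± 0.09, SE) with the smallest p of all members (adjusted p = 4.03e-07). Under quantile normalization the log2 fold change was -0.59 and the call was kept. A dim second probe set also fell (-1.21, adjusted p = 0.0121). Psme2 had 2549, 2399, 2372, 2573 and 2738 on PE outflow arrays and 2683, 2518, 2405, 2741 and 2939.7 on vehicle outflow arrays. These overlapped, with a log2 fold change of -0.07 ± 0.10 (SE, adjusted p = 0.639).

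**Figure D2:**
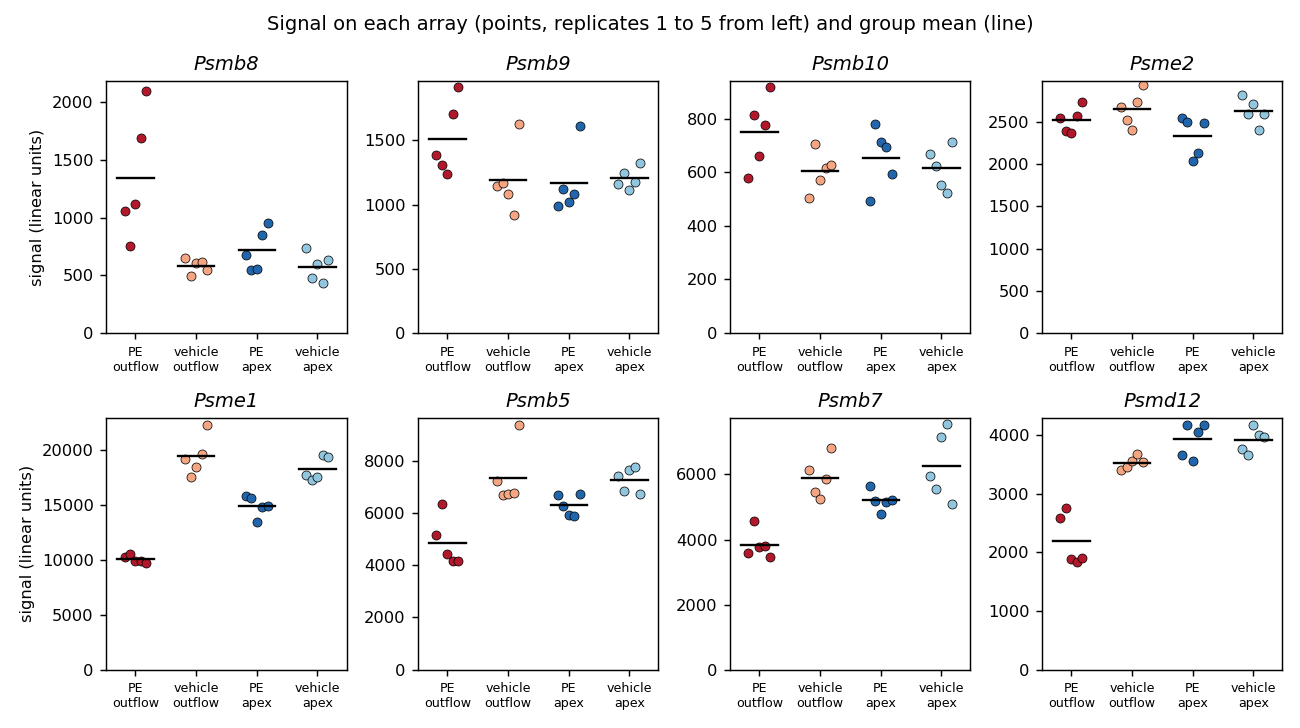
Signal (linear units, axes from 0) of 8 proteasome genes on each array, with replicates 1 to 5 from left in each group and a line at the group mean. Psmb8 is higher on every PE outflow array than on any vehicle outflow array, while Psme1, Psmb5, Psmb7 and Psmd12 are lower on all 5, and Psmb9, Psmb10 and Psme2 overlap.

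Within single arrays, Psmb8 and Psmb10 were set against the genes whose products they replace, and Psme1 against its partner Psme2. With each gene centred on its vehicle outflow mean, log2 Psmb8 minus log2 Psmb5 was 0.57 to 2.63 on PE outflow arrays (mean 1.70 ± 0.81, SD, n = 5) and -0.46 to 0.19 on vehicle outflow arrays. Psmb10 minus Psmb7 was 0.66 to 1.36 on PE outflow arrays and -0.31 to 0.34 on vehicle outflow arrays. Psmb10 alone was not called (0.29), while Psmb7 fell (-0.62). Psme1 minus Psme2 was -1.04 to -0.73 on PE outflow arrays and -0.07 to 0.07 on vehicle outflow arrays. None of the 3 differences overlapped between the groups. For Psmb8 minus Psmb5 this had to be so, since Psmb8 was higher and Psmb5 lower on every PE outflow array. Psme1 and Psmb7 also did not overlap by themselves. The share of other gene pairs with such a pattern is not given here. On PE apex arrays the differences were 0.12 to 0.85, -0.22 to 0.55 and -0.29 to -0.07, in the same order. These overlapped the vehicle apex arrays (-0.50 to 0.30, -0.56 to 0.44 and -0.21 to 0.15). They were chosen with the fold changes known and carry no test.

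Markers of cell types also differed between PE and vehicle rats. In the outflow tract, 11 of 14 leukocyte markers rose, and their summed signal was 32842 to 56825 on PE arrays and 27164 to 34998 on vehicle arrays. On PE outflow arrays this sum was lowest on replicate 2 (32842), where Psmb8 was also lowest, and highest on replicates 4 and 5 (56825 and 54752), where Psmb8 was highest. Of 8 fibroblast markers 7 rose, with sums of 164412 to 189720.0 on PE arrays and 66585 to 97909 on vehicle arrays. Of 9 cardiomyocyte markers 7 fell, with sums of 162924 to 448744 on PE arrays, the highest on replicate 2, and 339905 to 403224 on vehicle arrays. Replicate 2 thus lay above the vehicle range for cardiomyocyte markers and inside it for leukocyte markers. On that array the 39 genes outside the immunoproteasome and PA28 still had a median of -0.42 against their vehicle outflow mean. Of 6 endothelial markers 2 rose and 1 fell, with sums of 18163 to 20973 on PE arrays and 11188 to 15213 on vehicle arrays. No marker of these lists was at 0 on any array, the lowest being Itgam at 6.11 among leukocyte and Ryr2 at 3938 among cardiomyocyte markers. The part of these cell types in the proteasome results was not tested.

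RNA quality also moved with the group. On the GAPDH controls, the signal at the 3' end over that at the 5' end, a ratio that degraded RNA raises, was 1.70 to 6.12 on PE outflow arrays (6.12 on replicate 2, 2.20 on replicate 4 and 2.34 on replicate 5), 1.38 to 1.66 on vehicle outflow arrays, 1.47 to 1.67 on PE apex arrays and 1.44 to 1.83 on vehicle apex arrays. Replicate 2 was the lowest of the 5 PE outflow arrays for 17 of the 39 genes and the highest for 11, and within-group spread was wider in PE outflow (median SD 0.17 on the log2 scale) than in vehicle outflow (0.13), PE apex (0.09) or vehicle apex (0.13). The shift had the same direction on all 5 arrays. On each PE outflow array 34 to 37 of the 39 genes lay below their vehicle outflow mean, with medians of -0.44 to -0.27. Without replicate 2, 29 probe sets fell and 1 rose. With replicates 2, 4 and 5 all left out, 20 fell and 1 rose, and with the GAPDH ratio as a covariate 24 fell and 1 rose. Without these arrays the median log2 fold change was -0.26 over the members and 0.01 over all probe sets. With the covariate these medians were -0.31 and -0.03. The shares of all probe sets called in these settings are not given here.

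**Figure D3:**
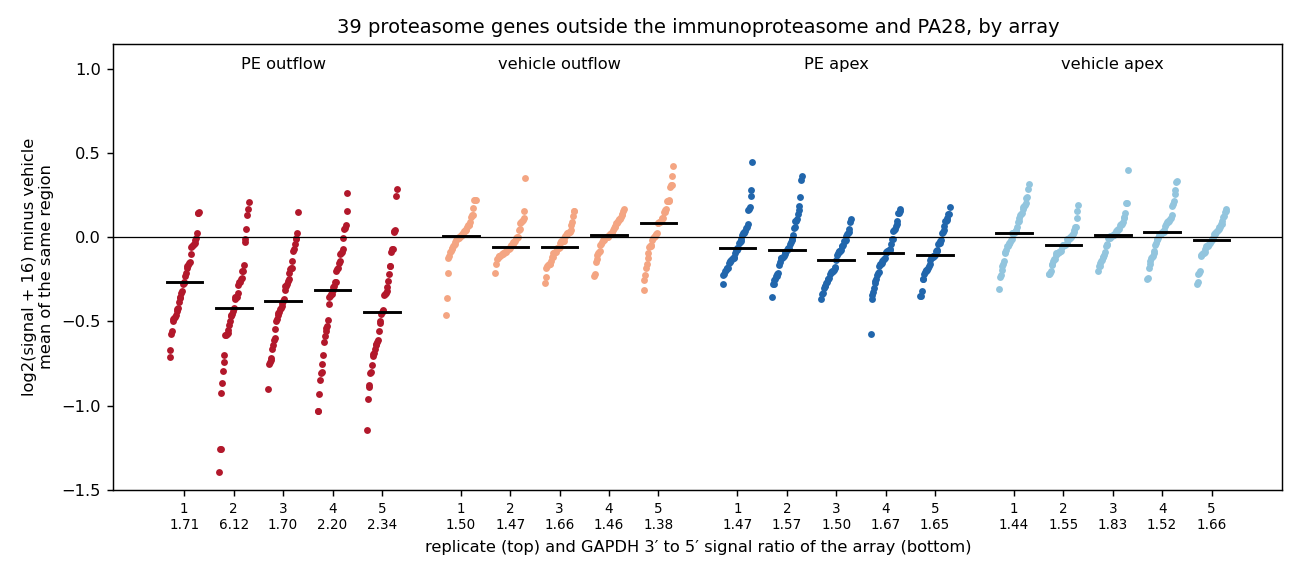
Log2 signal of the 39 genes outside the immunoproteasome and PA28 on each of 20 arrays, minus the vehicle mean of the same region, with the median of each array as a line and its GAPDH 3' to 5' ratio under the axis. All 5 PE outflow medians lie at or below -0.27, against -0.06 to 0.09 on vehicle outflow arrays, and the spread is widest on replicate 2. PE apex medians lie at -0.136 to -0.0648, against -0.0451 to 0.0308 on vehicle apex arrays.

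In the apex the same comparison gave no call. Of the 58 probe sets 0 passed the test by limma, and 3 (5.17%) had an unadjusted p under 0.05, against 7.47% of all probe sets. Over all 31042 probe sets 4 rose (0.0129%) and 0 fell. The median log2 fold change of the members was -0.08, and 0.003 over all probe sets, and 40 of the 58 estimates (all probe sets 49.3%) were below 0. For the 39 genes outside the immunoproteasome and PA28, the median against the vehicle apex mean was -0.136 to -0.0648 on PE apex arrays. On vehicle apex arrays it was -0.0451 to 0.0308, without overlap, and this small shift was not tested. Psme1 had the smallest p (-0.29 ± 0.09, SE, adjusted p = 0.394), with signals of 15814, 15649, 13445, 14819 and 14848 on PE apex arrays and 17743, 17233, 17527, 19538 and 19369 on vehicle apex arrays. Although it was not called, its PE apex arrays lay below all vehicle apex arrays, as they also did for Psma3, Psma7, Psmb4, Psmb5 and Psmc3 among the 44 genes. Across all probe sets 1.50% showed that pattern.

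The catalytic genes in the apex had small estimates. Psmb8 had 675, 542, 552, 851 and 956 on PE apex arrays and 733, 474, 599.8, 429.9 and 636 on vehicle apex arrays (log2 0.30 ± 0.23, SE, adjusted p = 0.828). Psmb5 had 5883 to 6720.4 (median 6274) on PE apex arrays and 6736 to 7739 (median 7422) on vehicle apex arrays, with a log2 fold change of -0.21. Psmb9 and Psmb10 had -0.07 and 0.08. On PE apex arrays Psmb8 overlapped the vehicle range, while the highest PE apex value of Psmb5 lay just below it.

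The PE effects of the regions were then compared, as the fold change in the outflow tract minus that in the apex. Of the 58 probe sets, 9 (15.5%) had a larger fall in the outflow tract and 0 a larger rise, against 8.09% and 9.84% of all probe sets. Among brighter probe sets the share was 17.6% of the members and 16.8% of all, so the members' share was near the background. The 9 were Psme4 (-0.72), Psmd12 (-0.70), Psme1 (-0.65), Psmb2 (-0.61), the dimmer probe set of Psmd7 (-0.59), Psmc5 (-0.58), Psmd2 (-0.53), Psma1 (-0.50) and Psma7 (-0.45). The median over the members was -0.30, and 47 of the 58 estimates were below 0, against 45.8% of all probe sets.

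Of the called differences, that of Psme4 was the largest (-0.72 ± 0.16, SE, adjusted p = 0.00478). Its signals were 2475, 2696, 2666, 2734 and 2980.5 on PE apex arrays and 2804, 2734, 2784, 2811 and 2620.0 on vehicle apex arrays, which overlapped. Psmd12 had 3657, 4173, 3555, 4051 and 4175 on PE apex arrays and 3767, 3666, 4162, 3992 and 3969.6 on vehicle apex arrays. These apex groups overlapped too, and the difference was -0.70 ± 0.17 (SE, adjusted p = 0.00644). For Psme1 it was -0.65 ± 0.13 (SE, adjusted p = 0.0023). Psmb8 had a difference of 0.80 ± 0.33 (SE), which did not pass the test (adjusted p = 0.104). It passed with each rat as its own block (adjusted p = 0.0219), with array weights (adjusted p = 0.0464) and without replicate 2 of PE outflow (0.98, adjusted p = 0.0229), so this call rests on the setting.

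The number of such calls depended on single arrays. Leaving out replicate 2 of PE outflow gave 14 larger falls and the rise of Psmb8, and leaving out its replicate 5 gave 5 larger falls. The count was 5 without replicate 4 of vehicle outflow, 5 without replicate 1 of PE apex, 4 without its replicate 2, and 5, 4 and 4 without replicates 2, 3 and 5 of vehicle apex. Replicate numbers were taken to pair the regions within a treatment. Each rat was then its own block, with its outflow minus apex difference compared between treatments. In that setting 5 larger falls (Psme1, Psme4, Psmd12, Psmc5 and Psmd2) and the larger rise of Psmb8 were called. Psme1, Psme4 and Psmd12 kept the call in all 31 alternatives. Psmc5 lost it in 16 and Psmb2 in 17, among them the block (adjusted p = 0.0686 for Psmb2).

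Within PE rats, the outflow tract was compared with the apex. Equal replicate numbers were taken as the same heart from correlations given below, since the titles do not name the rat. In the fit without pairing, 26 of the 58 probe sets (44.8%) were lower in the outflow tract and 1, Psmb8, was higher. Of all probe sets 12.7% were lower and 28.7% were called in either direction, and of the brighter ones 24.9% were lower. For 17 members every outflow array lay below every apex array, against 8.64% of all probe sets. With the replicate number as a block, which pairs the regions of each rat, 5 were lower (Psma7, Psmc5, Psmd12, Psme1 and Psme4) and Psmb8 was higher. The called shares of all probe sets above are from the fit without this block, and those with it are not given here. The genes furthest below the apex were Psmd12 (-0.85 ± 0.12, SE, adjusted p = 2.61e-05), Psmc5 (-0.80 ± 0.13, SE, adjusted p = 1.19e-04) and Psme4 (-0.75 ± 0.11, SE, adjusted p = 6.98e-05). Psme1 had -0.57, Psmb7 had -0.44 and Psmb5 had -0.39. The calls of Psmb2 (adjusted p = 0.074), Psmb5 (adjusted p = 0.114) and Psmb7 (adjusted p = 0.0646) were lost with the block, and that of Psmb8 was kept (0.84 ± 0.23, SE, adjusted p = 0.0102 without the block and 0.013 with it). This comparison and the PE comparison in the outflow tract share the PE outflow arrays.

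In vehicle rats the regions did not separate. Of the 58 probe sets 0 were called between outflow tract and apex, as were 0 of 31042 in all, and 1 (1.72%) had an unadjusted p under 0.05, against 3.71% of all. The median of the members was -0.04. Psme1 had 0.08, Psmb8 0.04 and Psmc5 -0.22.

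Genes around the proteasome were described for the outflow tract from lists of known roles. Of all probe sets 14.9% fell and 19.6% rose in this comparison, and 28.0% of the brighter ones fell. Of 16 measured partners of the proteasome outside the symbol rule, 5 fell (31.2%) and 2 rose (12.5%), shares near or below these, with a median of -0.16. Those with the smallest p were Vcp, which pulls ubiquitin-tagged proteins out of complexes and membranes (-0.67 ± 0.11, SE, adjusted p = 5.06e-05), its cofactors Nploc4 (-0.85) and Ufd1 (-0.46), and Pomp, the maturation factor of the core particle (-0.67, and -0.39 under quantile normalization, still called). Without replicates 2, 4 and 5 of PE outflow Nploc4 had -0.34 and was not called (adjusted p = 0.17). Pomp had 8917, 9734, 8014, 7782 and 7131 on PE outflow arrays and 14299.7, 12554, 12407, 14264 and 12644 on vehicle outflow arrays, with no overlap. Nfe2l1, which encodes a transcription factor that induces proteasome genes when the proteasome is inhibited, fell (-0.74, adjusted p = 0.00358). It is named outside the rule of up to 4 genes per list, after its value was seen, and was not followed through the alternatives. Its part in the fall of proteasome genes was not tested.

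Of 22 measured genes for ubiquitin and its enzymes, 11 fell (50%) and 1 rose (4.55%), with a median of -0.28. The conjugating enzyme Ube2b had 5422, 3823, 5173, 4030.3 and 3824 on PE outflow arrays and 8655, 8677, 8435, 8533 and 8718 on vehicle outflow arrays (log2 -0.96 ± 0.11, SE, adjusted p = 2.31e-06), while a dim probe set of it rose (0.99). Ube2d1 (-1.05), the ligase subunit Rbx1 (-0.60) and the chaperone-linked ligase Stub1 (-0.65) also fell. A dimmer probe set of Rbx1 had -0.0068 and was not called.

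Of 6 measured ubiquitin ligases of muscle, 4 fell (66.7%) and 0 rose, with a median of -0.94. Trim63, a ligase of contractile proteins known from muscle wasting, had 915, 958, 672, 364 and 258 on PE outflow arrays and 2403, 2018, 1943, 2077 and 1839 on vehicle outflow arrays. The groups were far apart (log2 -1.83 ± 0.26, SE, adjusted p = 1.79e-05). Asb2 (-1.33), Trim54 (-1.03) and the dim Fbxo32 (-0.85) fell with overlapping groups: the Asb2 and Trim54 signals of replicate 2 of PE outflow were 8372 and 9952, inside or above the vehicle ranges. Trim54 lost its call when only the outflow groups were fitted (adjusted p = 0.0634) and had -1.63 with the GAPDH covariate. Fbxo32 lost its call in 8 of 21 alternatives, with adjusted p-values up to 0.308, among them leaving out replicate 4 or 5 of PE outflow or replicate 1, 3 or 5 of vehicle outflow. Cardiomyocytes express these ligases, and 7 of 9 cardiomyocyte markers fell in the same comparison, as given above. The part of these cells in the fall of the ligases was not tested.

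Genes that act with the immunoproteasome were mixed. Of 10 measured genes of class I antigen processing, 3 rose (30%) and 1 fell (10%), close to the shares of all probe sets, with a median of 0.15. Erap1, which trims peptides after transport, had 3058, 4326, 3411, 4419.6 and 6660.2 on PE outflow arrays and 2443, 2441, 2057, 2073 and 1444 on vehicle outflow arrays (log2 1.03 ± 0.18, SE, adjusted p = 1.95e-04). The loading protein Pdia3 (0.70) and the peptide transporter subunit Tap2 (0.67) rose, and the class I transactivator Nlrc5 fell (-0.71). Tap2 lost its call in 10 of 22 alternatives, with adjusted p-values up to 0.238, among them both other scalings and leaving out replicate 1 or 2 of PE outflow or replicate 1, 3 or 4 of vehicle outflow. Erap1 had 0.65 without replicates 2, 4 and 5 of PE outflow and kept its call. Its other probe sets also rose, by 0.31 at a mean signal of 2098 (adjusted p = 0.0325) and by 1.06 at 55.3. Of 15 measured interferon response genes, 5 rose (33.3%) and 0 fell, against 19.6% and 14.9% of all probe sets, with a median of 0.45. Mx1, an antiviral GTPase, had 0.95, the transcription factors Irf8 and Irf1 had 0.92 and 0.51, and Ifngr1, a receptor subunit for interferon gamma, had 0.57. Without replicates 2, 4 and 5 of PE outflow Mx1 (adjusted p = 0.0975) and Irf1 (adjusted p = 0.111) were not called, and with centred arrays Irf1 (adjusted p = 0.0514) and Ifngr1 (adjusted p = 0.0508) were not. Of the 16 measured autophagy genes, which serve the other main route of protein breakdown, 5 rose (31.2%) and 6 fell (37.5%), with a median of 0.05. Ulk1 (-1.16), Map1lc3a (-0.93), Bnip3 (-0.69) and Sqstm1 (-0.62) fell. The dimmer probe sets of Sqstm1 were not called, the brightest of them having -0.23 (adjusted p = 0.377). Without replicates 2, 4 and 5 of PE outflow Ulk1 had -0.69 and Bnip3 -0.42, both still called. In the apex 0 genes of any of these lists were called.

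**Figure D4:**
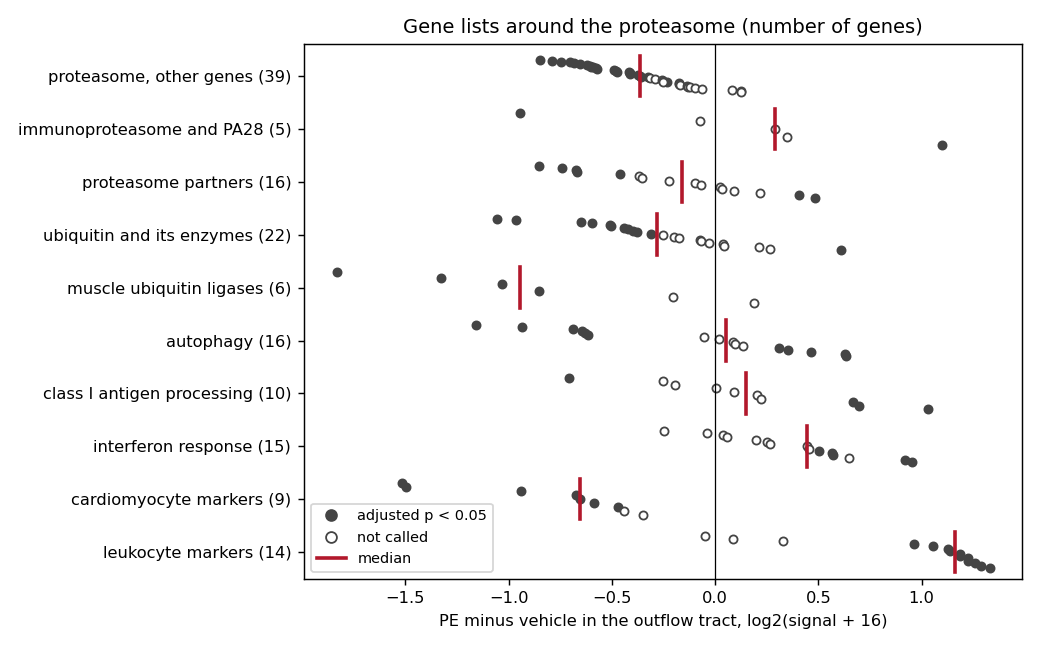
Log2 fold change in the outflow tract, PE minus vehicle, of each gene of 10 lists (number of genes in brackets), filled where the adjusted p was under 0.05, with the median of each list as a red line. The 39 other proteasome genes lie mostly left of 0 (median -0.36), muscle ligases and cardiomyocyte markers further left (-0.94 and -0.65), and interferon response genes and leukocyte markers right of 0 (0.45 and 1.16).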

How the data were processed

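Each array has a deposited table of signal intensity by probe set on a linear scale, as its value column is named. The software that made them is not given in the sources used here. The mean of each array's signal intensity, without 2% of the values at either end, was 500.2, a common level to which the authors had brought the arrays. These are not counts, and the number of arrays limits the precision.

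Of 31099 probe sets, 57 controls were set aside and 31042 tested. The annotation gave 1 symbol for 20826 of these, several for 436 and none for 9780. All 58 members were matched to the current rat gene table (RefSeq), with 0 symbols changed. Signals plus 16 were taken to log2. The 4 group means were estimated together from the 20 arrays in limma 3.58.1 (R 4.3.3, moderated variances, two-sided tests), and the script was tested on simulated data. Where a gene is named without a probe set, its brightest is meant. Titles call the arrays biological replicates.

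Every member could be named. Values per array were given for the immunoproteasome and PA28 genes, Psmb5, Psmb7 and the members with the largest called changes in the outflow tract or between the regions, and up to 4 genes per other list were named by p. Nfe2l1 was named besides these, outside the rule. The members and lists were chosen with earlier results of these data known.

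Over 12310 probe sets, deviations from the group means of arrays with the same replicate number correlated at 0.181 to 0.283 between PE outflow and PE apex, and at 0.181 to 0.276 between vehicle outflow and vehicle apex. Equal numbers within a treatment were therefore taken to mark the same rat. Between PE and vehicle rats the same correlations were -0.283 to 0.154, so numbers were not taken as pairs there. Alternatives covered scaling, filter, added constant, variance model, array weights, replicate block, RNA quality and leaving out each array.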

Additional observations from a re-analysis of the deposited data

Results flagged for a closer look

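The fall after PE was larger in the outflow tract than in the apex, by the test of the difference itself, for 9 probe sets, with differences (outflow minus apex, log2) of -0.65 for Psme1, -0.58 for Psmc5, -0.72 for Psme4, -0.45 for Psma7, -0.59 for the dimmer probe set of Psmd7, -0.70 for Psmd12, -0.50 for Psma1, -0.61 for Psmb2 and -0.53 for Psmd2. These are 15.5% of the members against 8.09% of all probe sets, and among the brighter ones 17.6% against 16.8%, near the background. Psmc5 lost the call in 16 and Psmb2 in 17 of 31 alternatives. The RNA quality, the cell type markers and the array of replicate 2 that moved with the PE outflow group are given above, and their part was not tested beyond the alternatives shown.

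Among the genes given by array, 5 arrays stood apart from the other 4 of their group by Dixon's criterion. Psmc5 was low on replicate 4 of PE apex (3008), and Psmb9 was high on replicate 5 of PE apex (1614). Psmb5 was high on replicate 5 of vehicle outflow (9383). Psmb2 was low on replicate 1 of vehicle outflow (4909) and on replicate 3 of PE apex (3881). Over all members, 20 of 232 groups of 5 arrays passed this limit, and chance gives about 1 in 20.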

How the results depend on the processing

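Over 1881 alternative values of 79 fold changes of named genes, 1730 kept their side of the threshold, 150 lost their call, 1 gained it and 0 called values changed sign. In the outflow tract PE lowered 11 to 39 of the 58 probe sets: 11 with the replicate number as a block, a pairing of PE with vehicle rats that the data do not bear out, and 25 to 33 without single arrays. Of the 24 genes that fell 9 were called with that block, and Psmb5 was not. Psma5, Psmb3, Psmb4, Psmc6, Psmd7, Psmd8, Psmd14 and Psmg1 were not called as reported but were called lower in some alternatives. Rises numbered 1 to 2 without single arrays (2 without replicate 5 of vehicle outflow, the second being Psmb9). Centring shifted the median of all probe sets to -0.08 and the calls to 14.2% higher and 19.2% lower, against 19.6% and 14.9% as reported, a shift that moves members and all probe sets alike. The members' median minus that of all probe sets was -0.41 as reported, -0.30 with quantile normalization, -0.28 with the GAPDH covariate and -0.27 without PE outflow replicates 2, 4 and 5. For the difference between regions, larger falls numbered 5 with quantile normalization, 16 with centring, 14 without the dimmest 40%, 14 with 64 added, 14 with trended robust variances, 16 with array weights, 5 with the replicate block, 3 without PE outflow replicates 2, 4 and 5, and 4 to 14 without single arrays. Larger rises, each of Psmb8, numbered 1 with array weights, 1 with the block and 0 to 1 without single arrays. Between the regions of PE rats, 16 were lower and 0 higher when only these groups were fitted, 9 and 0 without the 3 PE outflow arrays, 5 lower with the replicate block, and 22 to 27 lower and 1 to 2 higher without single arrays (Psmb9 besides Psmb8 without replicate 5 of PE apex). Some of these settings leave fewer arrays, and the cause of the changed counts was not tested. The block for the rat as a random effect (correlation 0.0651) moved no count by over 1.5 times. The apex and vehicle comparisons had 0 calls in all 21 alternatives run.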
